A study of Mus musculus with 47 samples.

Results

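The interferon response genes described here are 44 genes that cells are known to switch on after exposure to interferon, grouped by the role of their product: oligoadenylate synthetases, IFIT proteins, the ISG15 system, Mx proteins, other antiviral proteins, sensors of foreign nucleic acid, transcription factors, guanylate-binding proteins, immunity-related GTPases, antigen processing and chemokines. Members were taken by name from a list of genes known to respond to interferon, which was drawn up with earlier results of these data known, and no value decided which of its genes were kept as members. Of the 44 genes, 42 were on the array by name, on 61 of its 41174 probes, and Irf9 and Dhx58 were not found by name. In each sex 39 of these genes, on 49 probes, had a signal of at least 2 times the local background in both dyes, and a gene with several such probes was read at its brightest one. Mx1, Oas1g and Oas3 did not reach that level, so that every count below is out of 39 genes.

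Gene expression was measured in inguinal white adipose tissue (iWAT) of 47 mice of a C57/BL6;129Svj background. Per the study's methods, iWAT was the subcutaneous fat that runs through the inguinal and dorsolumbar areas. The mice were wild-type (WT) or lacked Bcmo1, the enzyme that cleaves β-carotene (BC) into retinal (labelled KO, here Bcmo1-null), and were females or males fed a diet with or without BC. All diets held 1500 IU vitamin A per kg, the BC diets held 150 mg BC per kg, feeding began at 5 weeks of age and lasted 14 weeks, and the mice were 19 weeks old at the end. Every group held 6 mice, apart from the BC-fed WT males, of which there were 5. The deletion was present throughout life and in every tissue, and the WT controls were an F1 generation of the mixed background per the study's methods, so that the deletion and any difference in background between the genotypes cannot be told apart. Each mouse was a separate sample hybridised against 1 pool of all samples, and every level below is the log2 ratio of a mouse to that pool, on which 0 is the level of the pool and 1 is a doubling of it.

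Interferons are secreted by cells that detect foreign nucleic acid. Type I interferons act through the receptor Ifnar1/Ifnar2 and a complex with Stat2 and Irf9 that binds the interferon-stimulated response element, whereas type II interferon, Ifng, comes mainly from T cells and NK cells and acts at the gamma-activated sequence. The genes they induce block viral replication, tag and destroy foreign RNA, attack vacuoles that hold pathogens and raise the display of peptides on MHC class I molecules, and the sets induced by both types overlap. In adipose tissue, adipocytes, resident macrophages and lymphocytes can all carry this programme, and the inguinal depot also encloses a lymph node.

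Promoters, taken from RefSeq (mouse assembly GRCm38.p6) as 250 bases before and 50 after the start of a gene, were found for 31 of the 44 genes. They were searched on both strands for the core of the interferon-stimulated response element, which is GAAA, 2 bases of any kind and again GAAA, and for TTCNNNGAA, the core of the gamma-activated sequence, which reads the same on both strands. The first was in a promoter of 15 of the 31 genes (48.4%) and of 3.99% of all 27025 genes with a promoter, and the second was in 8 (25.8%) against 9.55%. Of the member genes, 3 (Bst2, Igtp and Oas1a) held both and 11 held neither, which says only that these letters were not in these 300 bases. The promoters below are shown because their genes are described in the results and because they differ in which core they hold. Capitals mark every match, and a match to the first core on the opposite strand reads TTTC, 2 bases and TTTC. The promoter of Isg15 (chr4:156200769-156201068, minus strand) held 3 overlapping matches to the first core, that of Ifit1 (chr19:34640639-34640938, plus strand) held 2, and that of Rsad2 (chr12:26456403-26456702, minus strand) held 1. The promoters of Oas1a (chr5:120907476-120907775, minus strand) and Igtp (chr11:58199306-58199605, plus strand) held both cores. Those of Irf1 (chr11:53769764-53770063, plus strand) and Psmb8 (chr17:34197945-34198244, plus strand) held only the second.
Isg15: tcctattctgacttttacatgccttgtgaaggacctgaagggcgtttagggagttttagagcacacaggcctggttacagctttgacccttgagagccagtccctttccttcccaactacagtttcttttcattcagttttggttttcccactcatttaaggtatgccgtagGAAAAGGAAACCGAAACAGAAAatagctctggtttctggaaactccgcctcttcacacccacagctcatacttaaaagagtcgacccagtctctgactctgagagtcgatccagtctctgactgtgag
Ifit1: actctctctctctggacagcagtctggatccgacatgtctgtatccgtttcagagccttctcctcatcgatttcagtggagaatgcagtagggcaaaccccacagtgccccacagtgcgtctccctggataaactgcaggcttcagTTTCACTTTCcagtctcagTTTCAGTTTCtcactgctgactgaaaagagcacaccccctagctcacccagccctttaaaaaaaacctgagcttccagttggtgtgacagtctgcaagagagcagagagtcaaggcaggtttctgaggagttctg
Rsad2: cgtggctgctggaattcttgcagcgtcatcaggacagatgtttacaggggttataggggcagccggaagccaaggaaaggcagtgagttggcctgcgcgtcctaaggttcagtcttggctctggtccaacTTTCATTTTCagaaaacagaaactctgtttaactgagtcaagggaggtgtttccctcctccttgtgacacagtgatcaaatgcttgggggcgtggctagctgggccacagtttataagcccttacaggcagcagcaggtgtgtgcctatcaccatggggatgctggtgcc
Oas1a: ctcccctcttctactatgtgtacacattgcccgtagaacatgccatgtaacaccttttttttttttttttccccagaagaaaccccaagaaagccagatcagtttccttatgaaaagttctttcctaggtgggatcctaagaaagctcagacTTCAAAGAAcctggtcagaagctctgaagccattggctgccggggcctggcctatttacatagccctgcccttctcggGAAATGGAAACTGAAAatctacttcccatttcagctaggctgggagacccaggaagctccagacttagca
Igtp: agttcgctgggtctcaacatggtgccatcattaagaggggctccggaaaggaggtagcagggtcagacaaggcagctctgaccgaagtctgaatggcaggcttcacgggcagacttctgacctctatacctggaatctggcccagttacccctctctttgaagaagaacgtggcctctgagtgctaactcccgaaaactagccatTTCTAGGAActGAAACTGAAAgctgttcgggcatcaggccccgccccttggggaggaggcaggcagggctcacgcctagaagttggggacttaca
Irf1: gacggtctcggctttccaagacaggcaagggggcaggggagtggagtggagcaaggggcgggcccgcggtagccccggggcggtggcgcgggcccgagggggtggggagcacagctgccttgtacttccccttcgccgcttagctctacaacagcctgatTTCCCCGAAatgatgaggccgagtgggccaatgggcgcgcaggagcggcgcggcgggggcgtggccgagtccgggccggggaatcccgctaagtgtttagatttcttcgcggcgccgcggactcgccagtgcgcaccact
Psmb8: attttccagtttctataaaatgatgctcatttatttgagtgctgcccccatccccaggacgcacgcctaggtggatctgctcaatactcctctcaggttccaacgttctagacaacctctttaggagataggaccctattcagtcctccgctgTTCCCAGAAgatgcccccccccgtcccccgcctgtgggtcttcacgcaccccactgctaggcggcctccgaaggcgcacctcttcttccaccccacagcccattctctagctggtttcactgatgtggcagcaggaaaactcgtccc

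The arrays had a median Cy5 signal of 130 to 277 intensity units over a local background of 51 to 56, and 54.5% to 69.7% of spots per array exceeded 2 times their background. Bcmo1 itself gave no check of the genotype, since its only probe read 66.5 to 126 units in every group. Some libraries stood apart in lymphocyte content. The lymph node lymphocyte score, the median log2 ratio of the measured ones among 16 B and T cell genes such as Cd3e, was between 0.46 and 1.49 in the 6 Bcmo1-null males on the control diet and between -3.35 and -1.40 in the 5 WT males on the BC diet. In each of the female groups it spanned a wide range, which on the control diet was -2.94 to 0.17 in WT mice and -2.27 to 0.65 in Bcmo1-null ones. In whole tissue, more cells of a type and more RNA per cell cannot be told apart.

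In females on the control diet, the comparison of Bcmo1-null with WT mice asks how the tissue differs when the enzyme is missing and no BC is added. All 39 interferon response genes had a higher mean in the Bcmo1-null mice, with a median difference of 0.66 on the log2 scale, whereas the median over all 20811 probes was -0.01. Past an adjusted p of 0.05 in the limma fit, 18 of the 39 genes were higher and none was lower, against 0.788% of all probes that were higher and 1.04% that were lower. At an unadjusted p of 0.01 by limma, 24 were higher, against 1.9% of all probes. The highest WT mouse was below the lowest Bcmo1-null mouse for 17 of the 39 genes and for 1.01% of all probes. The plot of values by mouse shows 6 of the genes in all groups.

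**Figure D1:**
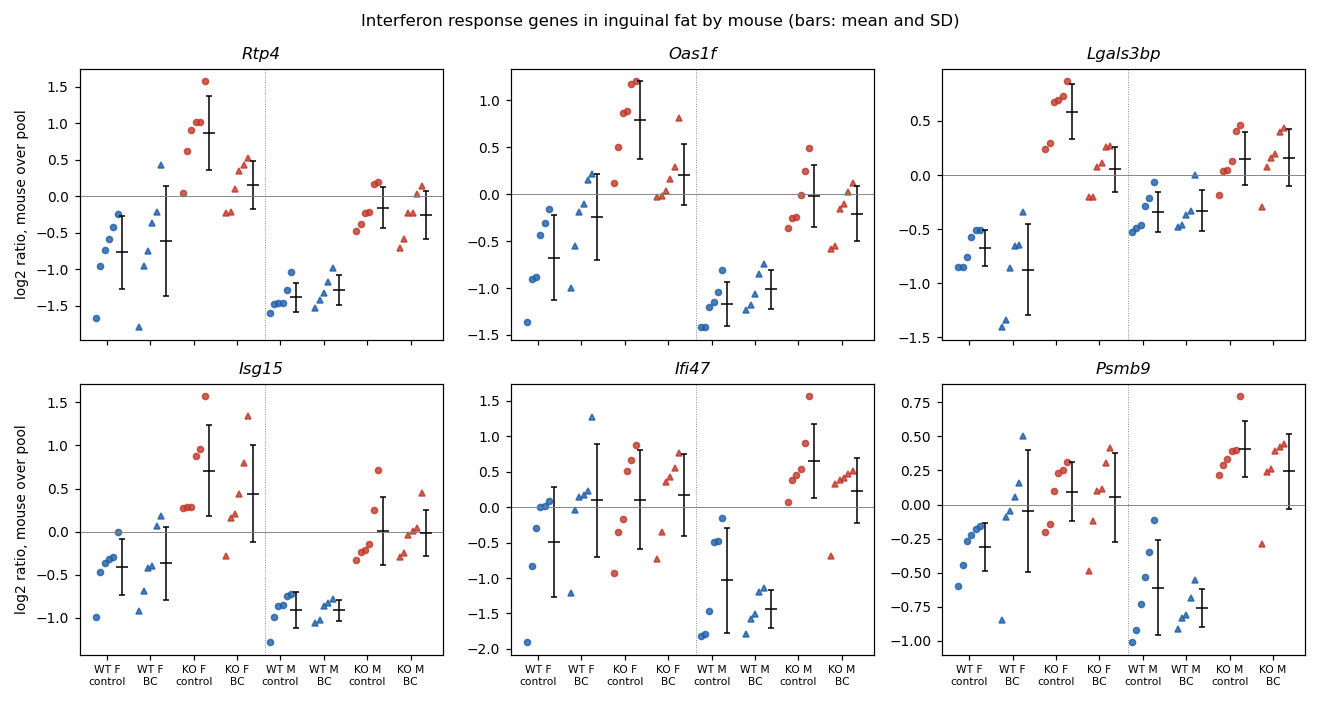
Log2 ratio to the pool (vertical axis) of each mouse for Rtp4, Oas1f, Lgals3bp, Isg15, Ifi47 and Psmb9, with 1 point per mouse in each of the 8 groups (F, females, M, males) and bars for the group mean and its SD. Bcmo1-null (KO) mice of both sexes sat above WT mice on the control diet for Rtp4, Oas1f and Isg15, and the groups on both diets overlapped within each genotype.

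The oligoadenylate synthetases, which sense viral RNA and make the short oligoadenylates that switch on RNase L, had 4 of 5 genes past the threshold in control-diet females. Oas1f was between -1.37 and -0.16 (median -0.66) in WT and between 0.12 and 1.20 (median 0.87) in Bcmo1-null females, a difference of 1.47 (SE 0.23, 2.77-fold, adjusted p = 0.000456 by limma). The groups did not overlap. Oasl2 was -1.07 to -0.04 (median -0.49) in WT and 0.43 to 1.44 (median 0.98) in Bcmo1-null females, a difference of 1.36 (SE 0.23, adjusted p = 0.00158). Oas1a was -1.02 to 0.13 (median -0.36) against 0.34 to 1.21 (median 1.00), a difference of 1.24 (SE 0.22, adjusted p = 0.00177). Both genes were thus separate between the genotypes as well. Oas2 was -0.61 to 0.02 against 0.05 to 1.04, with a difference of 0.89 (SE 0.14, adjusted p = 0.000414) and only a narrow gap between the groups. Oasl1, the remaining one, differed by 0.61 (SE 0.22) and did not pass (adjusted p = 0.243).

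The IFIT proteins, which bind viral RNA that lacks the host's cap, had 2 of 3 genes past the threshold. Ifit1 was -1.19 to 0.04 (median -0.47) in WT and 0.16 to 1.78 (median 0.56) in Bcmo1-null females, a difference of 1.22 (SE 0.29, adjusted p = 0.0254, and 0.111 with the slide as a block in the limma fit). The groups did not overlap, and 1 Bcmo1-null mouse lay well above the rest. Ifit3 differed by 0.91 (SE 0.20, adjusted p = 0.0157, and 0.168 with the slide). Ifit2 differed by 0.37 (SE 0.16, adjusted p = 0.396).

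Both measured genes of the ISG15 system were higher. Isg15, a ubiquitin-like protein that is attached to other proteins, was -0.99 to -0.01 (median -0.34) in WT and 0.27 to 1.58 (median 0.58) in Bcmo1-null females, a difference of 1.12 (SE 0.26, adjusted p = 0.0216, and 0.0962 with the slide). The array annotation (mm8) places the Isg15 probe on chromosome 17 whereas RefSeq has the gene on chromosome 4, so that its identity is uncertain. Usp18, the protease that removes Isg15 and restrains signalling at the type I receptor, was -1.12 to -0.14 (median -0.35) against -0.04 to 1.36 (median 0.45), a difference of 0.93 (SE 0.24, adjusted p = 0.0414, and 0.132 with the slide). The groups stood apart for both genes, by a narrow margin for Usp18. Mx2, an interferon-induced GTPase, differed by 0.60 (SE 0.20) and did not pass after adjustment (adjusted p = 0.149).

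Of the 9 other antiviral proteins, 6 were past the threshold, with differences over the 9 from 0.11 to 1.63. Rtp4, an interferon-induced protein that also assists receptors on their way to the cell surface, had the largest difference of all 39 genes. It was -1.66 to -0.24 (median -0.66) in WT and 0.05 to 1.58 (median 0.96) in Bcmo1-null females, a difference of 1.63 (SE 0.30, adjusted p = 0.00295). Lgals3bp, a secreted glycoprotein that binds galectins, was -0.85 to -0.50 (median -0.67) against 0.24 to 0.87 (median 0.68), a difference of 1.26 (SE 0.16, 2.39-fold, adjusted p = 2.53e-05). For this gene the gap between the groups was wider than the spread within either. Rsad2 (viperin), an enzyme that makes a nucleotide that stops viral RNA synthesis, was -0.66 to -0.23 (median -0.38) against 0.32 to 1.15 (median 0.72), a difference of 1.12 (SE 0.14, adjusted p = 3.49e-05). Ifi44 was -0.92 to -0.09 (median -0.29) against 0.01 to 1.35 (median 0.74), a difference of 1.13 (SE 0.21, adjusted p = 0.00361). The values of both genes did not overlap between the genotypes. Parp14 and Ifi35 passed too, with differences of 0.56 and 0.54, whereas Ifi27, Bst2 and Isg20 did not, at 0.79, 0.29 and 0.11.

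Of 3 sensors, Ifih1 passed (0.47, SE 0.11, adjusted p = 0.017) and Zbp1 (0.97, adjusted p = 0.0542) and Ddx58 (0.48, adjusted p = 0.072) did not. Of 3 transcription factors, Irf7, a driver of type I interferon production, passed with 0.85 (SE 0.19, adjusted p = 0.0144), as did Stat2 with 0.61 (SE 0.13, adjusted p = 0.0155), whereas Irf1 had 0.23 (SE 0.19). Of 3 guanylate-binding proteins, which coat the vacuoles of pathogens, Gbp3 passed with 0.92 (SE 0.23, adjusted p = 0.0321). None of the 4 immunity-related GTPases, of 4 antigen-processing genes or of 2 chemokines passed. Their median differences were 0.68, 0.41 and 0.59.

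**Figure D2:**
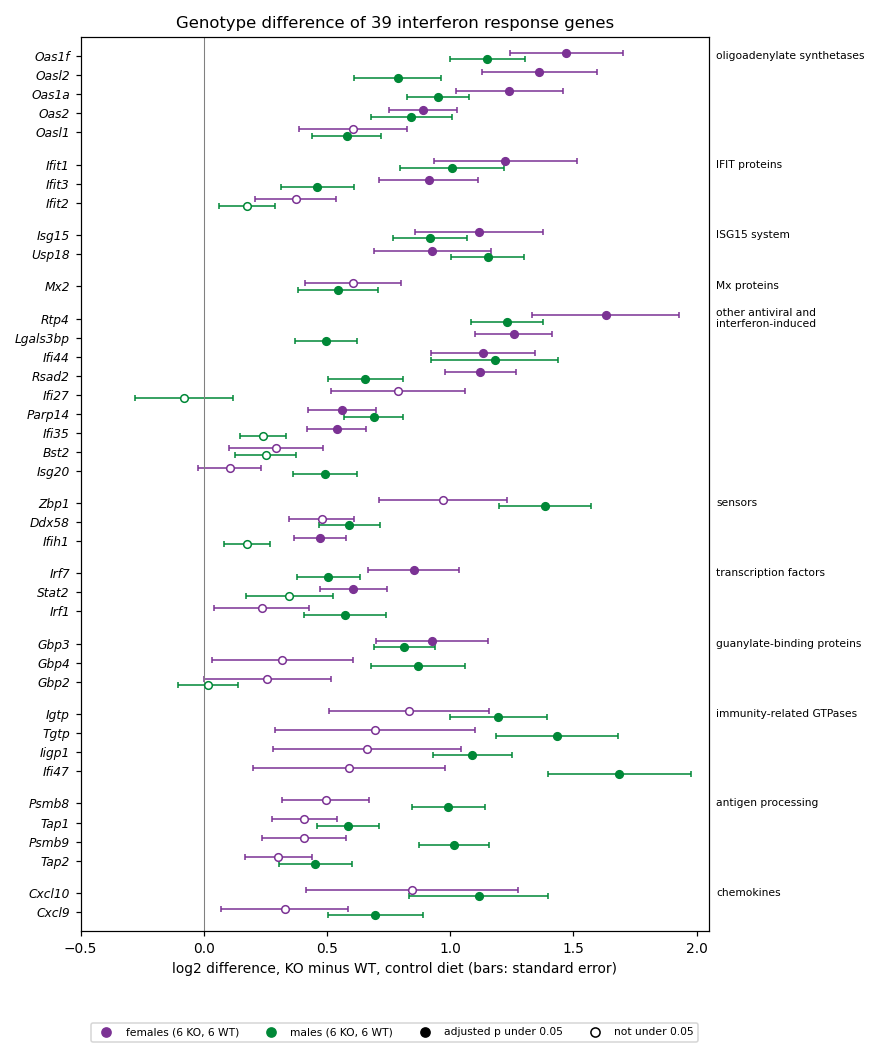
Difference in log2 ratio between Bcmo1-null (KO) and WT mice (horizontal axis, with its standard error) on the control diet for the 39 genes (vertical axis, by role), in females and males, with filled points where the adjusted p is under 0.05. In females every gene lay to the right of 0 and Rtp4 lay farthest, at 1.63, and in males Ifi47 lay farthest, at 1.69.

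In females on the BC diet the same question was asked with other mice. The median difference over the 39 genes was 0.31, and 33 of the 39 had a higher mean in Bcmo1-null mice. Only 3 genes were past the threshold, all higher, against 3.66% of all probes that were higher. These were Lgals3bp with 0.93 (SE 0.16, adjusted p = 0.000842), Rsad2 with 0.80 (SE 0.14, adjusted p = 0.0014) and Ifit3 with 0.92 (SE 0.20, adjusted p = 0.00883). Lgals3bp was -1.41 to -0.34 (median -0.76) in WT and -0.20 to 0.27 (median 0.10) in Bcmo1-null females, and Rsad2 was -0.82 to -0.01 (median -0.35) against 0.16 to 0.87 (median 0.41). These 2 genes and Oas2 were the ones whose groups did not overlap, as was true of 2.57% of all probes in this direction. Rtp4, which stood apart on the control diet, was -1.80 to 0.43 (median -0.56) against -0.23 to 0.52 (median 0.22) on the BC diet, and the groups overlapped.

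In males on the control diet, 32 of the 39 genes were past the threshold and higher in Bcmo1-null mice and none was lower, with a median difference of 0.70. In this comparison 17.6% of all 20437 probes were higher and 12.5% lower past the same threshold, so that the background was far larger than in females. The groups were separate for 21 of the 39 genes, and for 6.05% of all probes in this direction. On the BC diet 32 genes were higher and 1 was lower, against 16.3% and 12.9% of all probes, with a median difference of 0.60, and 20 genes were separate, against 6.37% of all probes.

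The 4 immunity-related GTPases, which are induced mainly by Ifng and disrupt vacuoles that hold pathogens, had the highest median difference of the roles in males, at 1.31 (control diet) and 1.64 (BC diet). Ifi47 was -1.82 to -0.15 (median -0.98) in WT and 0.08 to 1.57 (median 0.49) in Bcmo1-null males on the control diet, a difference of 1.69 (SE 0.29, 3.22-fold, adjusted p = 0.000351). On the BC diet the 5 WT males had -1.79, -1.57, -1.51, -1.20 and -1.15 and the Bcmo1-null males -0.69 to 0.51 (median 0.40), a difference of 1.68 (SE 0.30, adjusted p = 0.000717). The groups were apart on both diets. Tgtp was -1.84 to -0.43 (median -1.0) against -0.31 to 0.70 (median 0.48) on the control diet, a difference of 1.43 (SE 0.25, adjusted p = 0.000366). On the BC diet the WT males had -2.06, -1.58, -1.54, -1.53 and -1.24 and the Bcmo1-null males -0.90 to 0.59 (median 0.29), a difference of 1.72 (SE 0.26, adjusted p = 0.000117). Tgtp too was apart on both diets. Igtp was -1.53 to -0.58 (median -0.93) against -0.43 to 0.64 (median 0.32) on the control diet, a difference of 1.19 (SE 0.20, adjusted p = 0.000237), and on the BC diet it differed by 1.25 (SE 0.21, adjusted p = 0.000298). Iigp1 was -2.19 to -1.51 (median -1.82) against -1.16 to -0.47 (median -0.62) on the control diet, a difference of 1.09 (SE 0.16, adjusted p = 8.16e-05). On the BC diet its WT values were -2.12, -2.02, -1.82, -1.72 and -1.70, those of Bcmo1-null males -0.81 to 0.13 (median -0.11), and the difference 1.60 (SE 0.17, adjusted p = 1.65e-06).

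All 4 antigen-processing genes passed in males on both diets. Psmb9, a catalytic subunit of the immunoproteasome that cuts proteins into peptides for MHC class I, was -1.01 to -0.11 (median -0.63) in WT and 0.22 to 0.80 (median 0.37) in Bcmo1-null males on the control diet, a difference of 1.02 (SE 0.14, adjusted p = 5.02e-05). Psmb8, its partner subunit, was -1.03 to -0.09 (median -0.73) against 0.08 to 0.75 (median 0.33), a difference of 0.99 (SE 0.15, adjusted p = 9.1e-05). Tap1 and Tap2, which carry the peptides into the endoplasmic reticulum, differed by 0.59 and 0.45. The groups were separate for Psmb8, Psmb9 and Tap1. The promoter windows of Psmb9 and Tap1 share 275 bases on opposite strands, so that these genes lie head to head.

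Among the remaining roles, Zbp1, a sensor of nucleic acids in the Z form, was -1.40 to -0.52 (median -0.93) in WT and 0.00 to 1.23 (median 0.16) in Bcmo1-null males on the control diet, a difference of 1.38 (SE 0.19, adjusted p = 2.91e-05). Rtp4 was -1.60 to -1.03 (median -1.46) against -0.47 to 0.19 (median -0.22), a difference of 1.23 (SE 0.15, adjusted p = 5.97e-06). For Rtp4 the WT males on the BC diet had -1.52, -1.42, -1.32, -1.18 and -0.99 and the Bcmo1-null males -0.70 to 0.14 (median -0.23). Both genes were separate between the genotypes on both diets. All 5 oligoadenylate synthetases, both genes of the ISG15 system and both chemokines, Cxcl9 and Cxcl10, which attract activated T cells, were past the threshold on both diets. The 7 genes that did not pass on the control diet were Ifit2, Bst2, Ifi27, Ifi35, Ifih1, Stat2 and Gbp2, with differences from -0.08 to 0.35. Ifi27, a small membrane protein, was the 1 gene that was lower in Bcmo1-null males on the BC diet (-0.58, SE 0.21, adjusted p = 0.0394), where the WT males had 0.52, 0.82, 1.16, 1.24 and 1.45 and the Bcmo1-null males 0.19 to 0.73 (median 0.43), and these groups overlapped.

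Whether the genotype difference was of another size in males than in females was tested as an interaction over all 47 arrays, averaged over the diets. It passed for 15 of the 39 genes, 11 with a larger difference in males and 4 with a larger one in females, against 18% and 14.9% of all 20718 probes, a share not far from the background. The immunity-related GTPases (4 of 4) and antigen processing (3 of 4, without Tap2) made up 7 of the 11. Psmb9 (0.76, SE 0.16, adjusted p = 0.000775) and Psmb8 (0.78, SE 0.17, adjusted p = 0.000783) had the lowest p-values. In females on the control diet, Psmb9 was -0.60 to -0.16 (median -0.25) in WT against -0.20 to 0.31 (median 0.17) in Bcmo1-null mice, whereas Psmb8 was -0.98 to -0.10 against -0.27 to 0.33, so that the female groups overlapped. The others with a larger difference in males were Ifi47, Tgtp, Iigp1, Igtp, Irf1, Ddx58, Gbp4, Zbp1 and Tap1. Lgals3bp (-0.60, SE 0.15, adjusted p = 0.00195), Ifi27, Ifit3 and Ifih1 had a larger one in females. Of the oligoadenylate synthetases none of 5 passed, with interactions from -0.34 to 0.07, and for Rtp4 it was -0.07 with a 95% interval from -0.56 to 0.42.

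The BC diet was compared with the control diet within each sex and genotype. These comparisons share their groups of mice with the genotype comparisons. None of the 39 genes passed the adjusted threshold in any of the 4 diet comparisons, where limma called 1.11% of all probes in WT females and 0% in the other 3 groups, and in none did the groups on both diets stand apart for any of the genes. They stood apart for 2.25% of all probes in WT females, 0.0288% in Bcmo1-null females, 0.0832% in WT males and 0.103% in Bcmo1-null males. At an unadjusted p of 0.01 there was 1 gene in WT females (8.98% of all probes), 4 in Bcmo1-null females (0.365%), 0 in WT males (0.117%) and 3 in Bcmo1-null males (0.489%).

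In WT females this gene was Ddx58 (RIG-I), a cytoplasmic sensor of viral RNA. It was -0.37 to 0.03 (median -0.21) on the control diet and -0.06 to 0.81 (median 0.18) on the BC diet, a difference of 0.43 (SE 0.13, unadjusted p = 0.00358, adjusted p = 0.0795 by limma). The groups overlapped. The median over the 39 genes was 0.18, with 32 of 39 differences above 0, and the immunity-related GTPases had differences of 0.57 to 0.82. Leaving out control-fed replicate 2 gave a median of 0.09, and leaving out BC-fed replicate 5 gave 0.30. Of the cell type markers, 14 of 14 of lymphocytes (median 0.74) and 13 of 15 of macrophages (median 0.26) had a higher mean on the BC diet and 12 of 15 of adipocytes a lower one (median -0.29), and their part in the result was not tested. One WT female on the BC diet was the highest of its group in 21 of the 39 genes and another the lowest in 24. For Igtp the former mouse had 2.03, and the next highest had 0.14.

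In Bcmo1-null females, 35 of the 39 differences between the diets were below 0 (median -0.20, and -0.12 without replicate 1 of the BC diet). The 4 genes at the unadjusted threshold were all lower on the BC diet. Lgals3bp was 0.24 to 0.87 (median 0.68) on the control diet and -0.20 to 0.27 (median 0.10) on the BC diet, a difference of -0.53 (SE 0.16, unadjusted p = 0.00252 by limma). Stat2, a transcription factor of type I signalling, was -0.04 to 0.60 (median 0.32) against -0.40 to 0.14 (median -0.04), a difference of -0.43 (SE 0.13, unadjusted p = 0.00413 by limma). For both genes the ranges overlapped at their ends. Oas2 differed by -0.40 (SE 0.14, unadjusted p = 0.00802 by limma), with 0.05 to 1.04 against 0.02 to 0.46. Ifih1 differed by -0.36 (SE 0.11, unadjusted p = 0.0026 by limma).

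The interaction of genotype and diet in females, which asks whether the diet difference was of another size in the Bcmo1-null than in the WT mice, was below 0 for 35 of the 39 genes, with a median of -0.42 (-0.28 without replicate 1 of the BC-fed WT mice). It was also below 0 for 14 of 14 lymphocyte markers (median -0.67) and 15 of 15 macrophage markers (median -0.35), whose part was not tested. The interaction passed the adjusted threshold for none of the 39 genes in the limma fit, where 0% of all probes passed, and 3 genes were below the unadjusted one, against 0.293% of all probes that were lower. By limma these were Stat2 (-0.79, SE 0.19, unadjusted p = 0.000372), Ddx58 (-0.63, SE 0.19, unadjusted p = 0.00289) and Oas1f (-1.01, SE 0.32, unadjusted p = 0.00472), with adjusted p-values of 0.293, 0.369 and 0.376. On the BC diet Oas1f was -1.0 to 0.21 (median -0.15) in WT against -0.03 to 0.82 (median 0.10) in Bcmo1-null females, beside the wider distance on the control diet given above.

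In WT males the median diet difference was -0.05. In Bcmo1-null males it was -0.10, and Ifi44 was -0.72 to 0.95 (median 0.15) on the control diet and -1.08 to 0.12 (median -0.74) on the BC diet, a difference of -0.77 (SE 0.26, unadjusted p = 0.00666 by limma). Ifi27 was 0.54 to 1.52 (median 1.19) against 0.19 to 0.73 (median 0.43), a difference of -0.61 (SE 0.20, unadjusted p = 0.00533). Iigp1 was -1.16 to -0.47 (median -0.62) against -0.81 to 0.13 (median -0.11), a difference of 0.46 (SE 0.16, unadjusted p = 0.00884). All 3 pairs of groups overlapped, and each adjusted p was 0.983. The interaction of genotype and diet in males passed neither threshold for any of the 39 genes, with a median of -0.01, where 0.113% of all probes were below the unadjusted threshold. The interaction of sex and diet passed the adjusted threshold for none of the genes in either genotype, against 1.13% of all probes in the WT comparison and 0.00483% in the Bcmo1-null one, and the unadjusted one for 2 genes in WT mice (9.25% of all probes) and 0 in Bcmo1-null mice (0.521%).

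**Figure D3:**
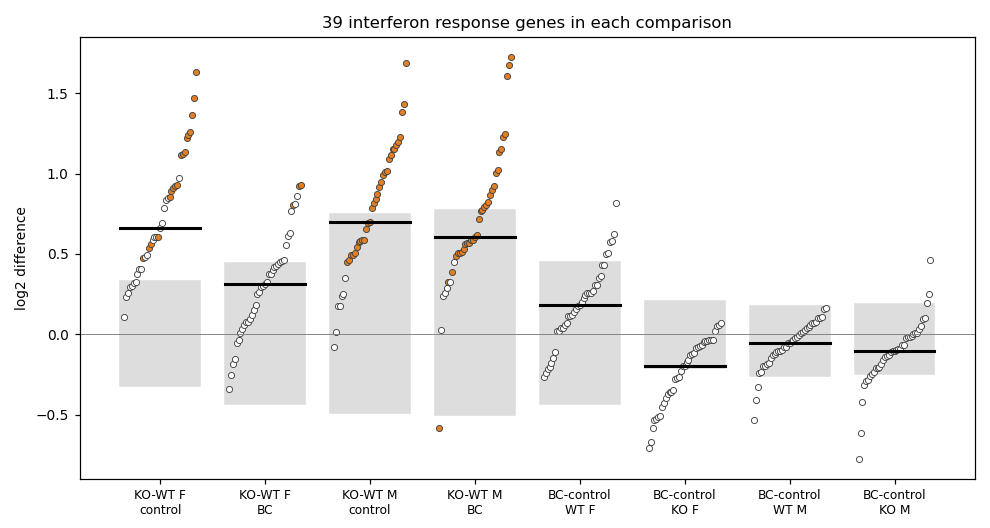
Log2 differences (vertical axis) of the 39 genes (1 point each, orange where the adjusted p is under 0.05) in each comparison (horizontal axis), with a black line at their median and a grey box from the 5th to the 95th percentile of all probes. The median line lay above 0 in all 4 genotype comparisons (at 0.66, 0.31, 0.70 and 0.60) and none was orange in the diet comparisons.

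Several probes of 1 gene allowed the readings to be compared within 7 genes. Their genotype differences had the same sign in all comparisons other than Ddx58 in females on the BC diet, where 3 probes ranged from -0.20 to 0.12. In control-diet females the 3 probes of Rsad2 had 0.48 to 1.12 and 2 of them passed the threshold, whereas in males they had 0.21 to 0.66 and 1 passed. The 2 probes of Psmb8 had 0.46 to 0.49 in females (neither passed) and 0.99 to 1.00 in males (both passed), and those of Parp14 0.40 to 0.56 (1 passed) and 0.69 to 0.69 (both passed). The 3 probes of Ifi27 had 0.79 to 0.86 in females and -0.18 to -0.08 in males, with none past the threshold. Ddx58 had 0.12 to 0.48 in females with none past the threshold and 0.30 to 0.59 in males with 2 of 3. In females the probes of Irf1 (0.20 to 0.23) and Isg20 (0.11 to 0.19) did not pass, and in males both of each did (0.39 to 0.57 and 0.36 to 0.49).

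Of the 39 genes, 8 lay on chromosome 5 and 6 on chromosome 11 (mm8 positions of the array annotation). The Oas1 genes, Tgtp, the IFIT genes and the guanylate-binding proteins belong to families of close copies, and how far their probes also bind the copies was not tested. Among genes with a promoter, 14 of the 18 past the threshold in control-diet females had one and 8 of these held the core of the interferon-stimulated response element, whereas of the 14 with a promoter among the other 21 genes 5 held it. TTCNNNGAA was in 2 and 6 of them. In control-diet males the split went the other way for the first core, which was in 9 of 22 genes past the threshold and in 4 of the 6 others. There TTCNNNGAA was in 5 and 3 of them.

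Of 85 other genes of the interferon pathway, 80 were on the array and 71 were measured. In females on the control diet 3 of them were higher and 0 lower, against 0.788% and 1.04% of all probes, and 10 were higher at the unadjusted threshold (1.9% of all probes). Gbp1, a further guanylate-binding protein, differed by 1.09 (SE 0.25, adjusted p = 0.0188), Trim25, the ubiquitin ligase that acts on Ddx58, by 0.49 (SE 0.13, adjusted p = 0.041) and Parp9 by 0.39 (SE 0.08, adjusted p = 0.00907). None of 6 receptor genes or 11 signalling genes passed. In males on the control diet 45 of the 71 were higher and 3 lower, against 17.6% and 12.5% of all probes. The 5 largest differences were those of Ccl5 (2.66, SE 0.67), a chemokine made by T cells, Ms4a4c (1.88, SE 0.38), Ptpn6 (1.84, SE 0.39), a phosphatase of blood cells, Slfn2 (1.26, SE 0.26) and Irf8 (1.19, SE 0.29), a transcription factor of myeloid and B cells. On the BC diet the counts were 0 and 0 in females, where 3.66% of all probes were higher, and 39 and 2 in males, where 16.3% were higher and 12.9% lower.

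Of the ligands, Ifng differed by 0.13 (SE 0.24, adjusted p = 0.941) in females and by 0.64 (SE 0.15, adjusted p = 0.00387) in males on the control diet. The probe of Ifnb1, a type I interferon, had a mean Cy5 signal of 62.8 units in females and 70.4 in males and was not measured. Ifnar1 differed by -0.05 in females and -0.13 in males and did not pass in either. Both probes of Ifnar2 differed by 0.11 in females and did not pass, whereas in males the brighter probe differed by 0.05 (SE 0.05, adjusted p = 0.57 by limma) and the other by 0.36 (SE 0.09, adjusted p = 0.00493), so that its probes disagreed.

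Markers of other cell types moved with the genotype in males, where 17.6% of all probes were higher and 12.5% lower on the control diet. All 13 measured lymphocyte markers were higher in Bcmo1-null males on both diets, with medians of 2.63 and 2.92, as were 12 of 15 macrophage markers on both (medians 0.45 and 0.54), 4 and 5 of 7 markers of plasmacytoid dendritic cells and 4 and 3 of 4 NK cell markers. The lymphocyte score was -3.18 to 0.28 in WT and 0.46 to 1.49 in Bcmo1-null males on the control diet, and -3.35 to -1.40 against -2.50 to 0.99 on the BC diet. The macrophage score was -0.55 to -0.07 against 0.02 to 0.36 on the control diet and -0.81 to -0.30 against -0.12 to 0.34 on the BC diet. In females on the control diet 0 of 14 lymphocyte markers (median 0.00) and 0 of 15 macrophage markers (median 0.49) passed, and the macrophage score was -1.64 to 0.01 in WT and -0.68 to 0.47 in Bcmo1-null mice. In females on the BC diet 0 of 14 and 0 of 15 passed (medians -0.63 and 0.13). In control-diet males 6 of 15 adipocyte markers were lower and 1 was higher, and in females 1 was lower and 1 higher. None of 14 skeletal muscle markers passed on the control diet, where all 14 had a higher mean in Bcmo1-null females (median 1.22) and all 14 a lower one in Bcmo1-null males (median -1.32). None of 16 mammary epithelium markers passed in control-diet females, where all 16 had a lower mean in Bcmo1-null mice (median -0.36). The part of these cells in the results was not tested.

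With the lymphocyte score as a covariate, the genes past the threshold in control-diet females were 22 in place of 18, against 2.32% of all probes, and the median difference was 0.66. In males the count was 16 in place of 32 on the control diet (3.13% of all probes, median 0.57) and 9 in place of 33 on the BC diet (1.75% of all probes, median 0.52). With the macrophage score it was 9 in females on the control diet (1.56% of all probes, median 0.49) and 13 and 2 in males (7.3% and 1.56% of all probes, medians 0.66 and 0.60). In males the macrophage scores did not overlap between the genotypes on either diet, nor did the lymphocyte scores on the control diet. The fits in males therefore cannot tell these scores and the genotype apart. Without the arrays that had a lymphocyte score under -1, a comparison chosen after the data were seen, 17 genes passed in control-diet females (4 WT and 3 Bcmo1-null mice left, 1.33% of all probes) and 22 in control-diet males (3 WT and 6 Bcmo1-null mice left, 11.6% of all probes). In the control-diet males left, the lymphocyte scores still did not overlap, at -0.71 to 0.28 in WT and 0.46 to 1.49 in Bcmo1-null mice. All 5 WT males on the BC diet had a score under -1, so that their comparisons could not be made. With the slide as a block, 8 genes passed in females on the control diet (0.736% of all probes, median 0.61) and 26 in males (14.5% of all probes, median 0.67). On slides that held both genotypes, the median over the 39 genes was above 0 on 3 of 3 in control-diet females (0.32 to 1.00) and 4 of 4 in control-diet males (0.30 to 1.24). It was so on 4 of 5 in BC-diet females (-0.41 to 0.85) and 5 of 5 in BC-diet males (0.29 to 0.88).

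Oas1a, Oas1f, Oas2, Oasl2, Lgals3bp, Rsad2 and Rtp4 passed in control-diet females with each of the slide, the lymphocyte score and the macrophage score in the fit. Their differences with the macrophage score were 0.91, 1.13, 0.90, 0.99, 1.16, 1.10 and 1.28. Ifi35 passed with the slide and the lymphocyte score and not with the macrophage score (adjusted p = 0.0716). The other 10 of the 18 genes passed with the lymphocyte score and not with the slide, and of these Ifi44 and Stat2 passed with the macrophage score and Gbp3, Ifih1, Ifit1, Ifit3, Irf7, Isg15, Parp14 and Usp18 did not. For Isg15, Ifit1 and Usp18 the adjusted p was 0.00776, 0.0077 and 0.000424 with the lymphocyte score and 0.102, 0.116 and 0.181 with the macrophage score.

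**Figure D4:**
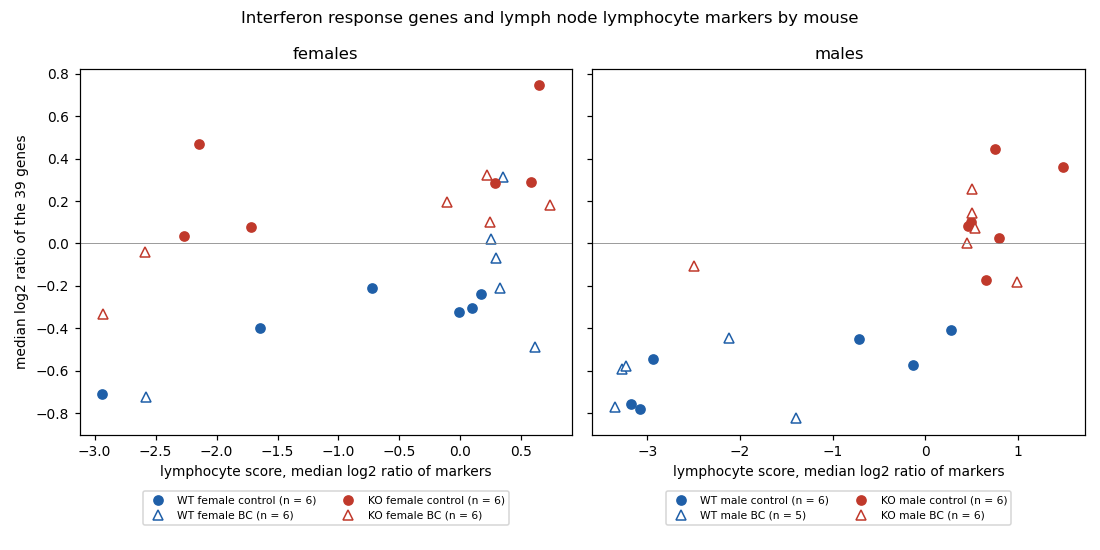
Median log2 ratio of the 39 interferon response genes in each mouse (vertical axis) against its lymphocyte score (horizontal axis, median log2 ratio of lymph node markers), females on the left and males on the right. The 3 Bcmo1-null females on the control diet with a score under -1 had interferon medians between 0.04 and 0.47, above all 6 WT females of that diet, and the 5 WT males on the BC diet all lay at scores of -1.40 or lower.

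Taken per mouse, the median of the 39 genes in control-diet females was -0.71 to -0.21 in WT against 0.04 to 0.75 in Bcmo1-null mice, and in BC-diet females it was -0.72 to 0.31 against -0.33 to 0.32. In males it was -0.78 to -0.41 against -0.17 to 0.44 on the control diet and -0.82 to -0.44 against -0.18 to 0.25 on the BC diet. The genotypes overlapped in females on the BC diet and in no other of these 4 comparisons. Single mice led many genes at once. One control-fed Bcmo1-null female was the highest of its group in 28 of the 39 genes, with a lymphocyte score of 0.65 and a macrophage score of 0.26, and 1 BC-fed Bcmo1-null female was the lowest in 28, with a lymphocyte score of -2.93. Without the latter, 7 genes in place of 3 passed the threshold between the genotypes on the BC diet. The share of all probes that passed in that fit is not given here, so that this rise cannot be set against the background.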

How the data were processed

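RNA of each of the 47 mice was labelled with Cy5 and hybridised to a 2-colour Agilent array together with a Cy3-labelled pool of all samples, with no dye swap, so that a dye effect of a probe is the same on every array. The authors deposited, for each array, median signal and background intensity per spot in both dyes, extracted with Feature Extraction (9.5.3.1 per the file headers), processed signals and a log10 ratio of Cy5 over Cy3, and a series table that equals that log10 ratio. The median intensities were used here and the log10 ratio served as an alternative. Columns of spot errors and flags other than those named here were not used.

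Background was corrected on all spots with normexp (offset 50) in limma 3.58.1 (R 4.3.3). Ratios were then normalised by loess within arrays, where control spots and 10902 flagged spots had no weight. These spots were also left out of the ratios of the probes. Probes entered a fit where the mean intensity in both dyes was no lower than 2 times that of the local background, a condition met by 20811 probes in the female, 20437 in the male and 20718 in the joint fit. Groups came from the sample titles. The slide was taken from a number in the name of each deposited scan and not from the titles. The log2 ratios were fitted with limma (lmFit and eBayes) to the 4 groups of each sex, 24 female and 23 male arrays, and to all 8 groups for interactions with sex, and p-values were adjusted by Benjamini-Hochberg over all kept probes. The value of Gbp4 was missing on 1 male array, and its male fits used 22. On data simulated from these arrays, the fit recovered 90% of 50 probes with a log2 change of 1 in control-diet females. In control-diet males the share was 92%, and with a change of 0.5 the shares were 56% in females and 66% in males. The simulation left 20611 of 20811 probes unchanged in females and 20237 of 20437 in males. In the real control-diet males 30.1% of all probes passed. Recovery was not tested for the interferon response genes alone, so that these shares do not give the power for them. Replicates are separate mice. The study's methods, which describe the females, give 3 mice to a cage, and which mice shared one is not given in the sources used here, so that mice of a group may not be independent.

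The member genes, gene lists and tests were chosen with earlier results of these data known. Values by group are given for the 10 genes with the largest control-diet genotype difference past the threshold in females, the 5 largest in males, up to 3 diet differences per sex and genotype at an unadjusted p of 0.01, and the 3 lowest p-values of the interaction of sex and genotype. Ifit3, Ifih1 and the other genes with a value in the text were given to account for every role. Of the other pathway genes, the 5 largest past the threshold in each sex are named, with Ifng, Ifnb1 and the type I receptor.

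Alternatives were no background correction, the deposited log10 ratio, median centring or no normalisation, the Cy5 channel alone, no filter or the scanner's own detection flag, the methods' t-test, a block for the slide or the replicate number, a fit to all 47 arrays or to the compared groups alone, the mean over a gene's probes, lymphocyte, macrophage or mammary scores as covariates, and each array left out in turn. Leaving out arrays with a lymphocyte score under -1 was chosen after seeing the data. The number of arrays sets the limit of precision.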

Additional observations from a re-analysis of the deposited data

Results flagged for a closer look

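Among the named genes and the median over the members, 15 of 176 sets of 1 such item in 1 group held a mouse whose distance to its nearest neighbour was large for the range of its group. Chance gives about 1 in 20 sets where sets are independent. These were not, since 1 mouse can stand apart in several genes at once, so that the 2 shares cannot be compared. Of these, 8 were in Bcmo1-null males on the BC diet. Replicate 1 of that group was low in Ifi47 (-0.69, next 0.33), Igtp (-0.84), Psmb8 (-0.18), Psmb9 (-0.29) and Tgtp (-0.90), and its lymphocyte score of -2.50 was the lowest of the group. Replicate 2 was low in Oasl2 (-0.82), Rsad2 (-0.46) and Stat2 (-0.48).

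In WT females on the BC diet, replicate 1 was high in Igtp (2.03) and replicate 5 was low in Oas2 (-0.60) and Psmb8 (-0.86). In WT males on the BC diet, replicate 1 was high in Oas2 (0.0177, next -0.58) and Usp18 (-0.52). Usp18 was low in WT females on the control diet, replicate 2 (-1.12, next -0.50), and Psmb9 was high in Bcmo1-null males on the control diet, replicate 3 (0.80).

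The genotype difference was larger in males than in females, by the interaction in limma over all 47 arrays, for Psmb9 (0.76), Psmb8 (0.78), Ifi47 (1.35), Iigp1 (1.01), Tgtp (1.14), Irf1 (0.60), Ddx58 (0.41), Gbp4 (0.77), Igtp (0.82), Zbp1 (0.67) and Tap1 (0.37). It was larger in females for Lgals3bp (-0.60), Ifi27 (-0.87), Ifit3 (-0.54) and Ifih1 (-0.27). Of all probes, 18% passed with a larger difference in males and 14.9% with a larger one in females, so that these counts of 11 and 4 of 39 are near the background. With the lymphocyte score in the fit 1 of the 39 genes passed this test. The share of all probes that passed with that score is not given here, so that this drop cannot be set against the background. In males the lymphocyte score differed between the genotypes beside these genes, so that this fit cannot tell its part from that of the genotype.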

How the results depend on the processing

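No difference of a gene chosen by the naming rule changed direction under any alternative, and the other genes given with values were not part of that comparison. The share of all probes that passed moved between fits as well, so that a count given in this section without it cannot be set against its background. In control-diet females, where 18 genes and 1.83% of all probes passed, the count was 8 without normalisation and 10 with the methods' t-test. It was 8 with the slide as a block (0.736% of all probes), 9 with the macrophage score (1.56%) and 12 to 20 with single arrays left out. In BC-diet females, where 3 genes and 5.46% of all probes passed, it was 9 with all 47 arrays in the fit. It was 8 with the lymphocyte score (6.77% of all probes), 6 with the macrophage score (7.31%) and 7 without the arrays of low lymphocyte score (13.9%). With single arrays left out it was 3 to 7, of which leaving out replicate 1 of the Bcmo1-null mice gave 7 and replicate 6 of the WT mice 5. In control-diet males (32, with 30.1% of all probes) it was 16 with the lymphocyte score (3.13%), 13 with the macrophage score (7.3%) and 30 to 34 with single arrays left out. In BC-diet males (33, with 29.1% of all probes) it was 18 with median centring, 9 with the lymphocyte score (1.75%), 2 with the macrophage score (1.56%) and 28 to 34 with single arrays left out. The sex by genotype interaction (15) gave 8 with median centring, 7 without normalisation and 1 with the lymphocyte score, which moved its median from 0.18 to -0.15. The median sex by diet interaction in WT mice, -0.24, was 0.0056 with median centring and 0.013 with the macrophage score, and 1 gene passed with the slide as a block. The diet count in WT females, 0, was 1 with all 47 arrays and 0 to 1 with single arrays left out (it was 1 when replicate 3 on the control diet or replicate 6 on the BC diet was left out). Of the named genes, Usp18, Ifit1 and Isg15 lost their call most often in control-diet females. With single arrays left out, the median was 0.09 to 0.30 for the diet in WT females, -0.25 to -0.12 in Bcmo1-null females, -0.09 to -0.01 in WT males and -0.16 to -0.04 in Bcmo1-null males. It was -0.56 to -0.28 for the genotype by diet interaction in females, -0.07 to 0.06 in males and 0.06 to 0.23 for sex by genotype, of which 0.06 was without replicate 1 of the BC-fed WT females. The cause of these shifts was not tested.

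The replicate block, with the replicate number of the labels, gave 5 genes in BC-diet females, 17 in control-diet females, 32 in control-diet males, 1 for the diet in WT females and 1 for the sex by diet interaction in WT mice. Same-numbered mice deviated together with correlations from -0.53 to 0.61 and not above 0.1 in every pair of any comparison, so that the numbers were not taken to pair the mice.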
